A study of Mus musculus with 6 samples.

Results

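The 44 collagen genes of the mouse were read from RNA-seq counts of primordial germ cell-like cells (PGCLCs), cells made in culture from embryonic stem (ES) cells as a model of the earliest germ line. Members were every protein-coding gene whose symbol is Col, a number, a and a number. All 44 were among the 37991 gene IDs of the count table, and they fall into 11 fibrillar collagens, 6 basement membrane collagens (Col4a1 to Col4a6) and 27 others. The 6 libraries form 2 groups of 3 on day 4 of induction: Ctrl, labelled Ezh2f/f, CreERT2, from aggregates given ethanol, and Ezh2 KO, labelled Ezh2-/-, CreERT2, from aggregates given 4-hydroxytamoxifen in ethanol. Both groups share the C57BL/6 background, the floxed Ezh2 alleles, the tamoxifen-activated Cre and an induction medium that held EGF, LIF, SCF and BMP2. The agent was added to that medium, and the cells were sorted from dissociated aggregates; the sources used here do not give the gate. Whether replicates came from separate cultures is not stated, so the p-values rest on the spread among these libraries only, which may be technical.

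Collagens are secreted or membrane-bound proteins in which 3 chains wind into a triple helix. Fibrillar collagens build the cables of connective tissue, Col4 chains form the sheet-like network of basement membranes, and the remaining types link, anchor or span these structures. In the embryo, collagen IV is laid down early beneath the epiblast and by the extraembryonic endoderm, whereas fibrillar collagens are mainly products of mesenchyme and cartilage. EZH2, the enzyme of Polycomb repressive complex 2, places H3K27me3, a repressive mark on many developmental genes that are silent in stem cells.

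Total counts ran from 27072150 to 49382146 per library. Ezh2 itself stood at 91.8, 78.1 and 95.3 CPM (counts scaled to library size with TMM factors) across Ctrl replicates 1 to 3, and at 40.8, 67.1 and 70.03 across the Ezh2 KO replicates, a log2 fold change of -0.58 ± 0.23 (SE, edgeR adjusted p = 0.976) that was -0.37 without Ezh2 KO replicate 1. The groups did not overlap, but much of the transcript was still present in the Ezh2 KO libraries, and counts per gene do not separate the floxed part from the rest. The 10 listed germ cell markers summed to 1325 to 1845 CPM per library but differed widely in level. Nanog (510 CPM, mean of 6 libraries) and Pou5f1 (320) led, while Dnd1 (18.6), Nanos3 (9.95) and Prdm1 (5.13) were the lowest. The libraries differed in base composition along the first principal component, with the mean transcript GC content of the counts highest in Ctrl replicate 1 (49.5%) and lowest in Ezh2 KO replicate 2 (48.0%).

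Promoter windows of 5 collagen genes are shown because the values below turn on these genes: Col18a1 and Col9a2 hold most of the collagen counts, Col4a1 lies head to head with Col4a2, and Col1a2 and Col5a1 had the smallest p-values. Each window runs from 250 bases before to 50 bases after an annotated start, 5′ to 3′ on the strand of the gene, and comes from RefSeq on GRCm38.p6, a later build than that of the counts, matched by symbol (35 of the 44 genes had a window). Capitals mark GC boxes (GGGCGG, bound by Sp1-type factors) and CCAAT boxes (CCAAT) on either strand, except in the Col4a1 window. Col18a1 has 2 annotated starts 52825 bases apart, and counts per gene do not tell them apart. The upstream start lies in chr10:77166481-77166780 (minus strand), the downstream start in chr10:77113656-77113955 (minus strand).
Col18a1 upstream start: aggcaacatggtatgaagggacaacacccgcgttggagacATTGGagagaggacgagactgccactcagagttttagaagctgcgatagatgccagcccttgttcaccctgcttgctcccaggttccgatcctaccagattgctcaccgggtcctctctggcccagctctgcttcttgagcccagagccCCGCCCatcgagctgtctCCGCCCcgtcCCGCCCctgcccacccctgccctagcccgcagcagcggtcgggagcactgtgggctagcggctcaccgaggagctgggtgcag
Col18a1 downstream start: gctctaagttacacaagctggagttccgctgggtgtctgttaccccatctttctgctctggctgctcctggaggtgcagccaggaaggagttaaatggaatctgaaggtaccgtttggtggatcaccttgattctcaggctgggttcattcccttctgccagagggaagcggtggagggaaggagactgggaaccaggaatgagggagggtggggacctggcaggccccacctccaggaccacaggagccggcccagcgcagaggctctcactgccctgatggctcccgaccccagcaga
Col9a2, chr4:121039316-121039615 (plus strand): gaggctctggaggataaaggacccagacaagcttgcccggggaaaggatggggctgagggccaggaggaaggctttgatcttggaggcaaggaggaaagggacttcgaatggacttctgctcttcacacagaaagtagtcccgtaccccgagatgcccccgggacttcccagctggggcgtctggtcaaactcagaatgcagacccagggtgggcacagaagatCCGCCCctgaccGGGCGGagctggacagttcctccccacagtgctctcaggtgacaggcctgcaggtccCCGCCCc
Col1a2, chr6:4505368-4505667 (plus strand): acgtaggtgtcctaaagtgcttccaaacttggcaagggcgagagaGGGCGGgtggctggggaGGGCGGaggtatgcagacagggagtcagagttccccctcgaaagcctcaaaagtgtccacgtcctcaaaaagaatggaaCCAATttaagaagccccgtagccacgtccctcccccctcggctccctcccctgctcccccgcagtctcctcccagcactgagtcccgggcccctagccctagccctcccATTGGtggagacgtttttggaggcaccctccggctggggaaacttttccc
Col5a1, chr2:27886175-27886474 (plus strand): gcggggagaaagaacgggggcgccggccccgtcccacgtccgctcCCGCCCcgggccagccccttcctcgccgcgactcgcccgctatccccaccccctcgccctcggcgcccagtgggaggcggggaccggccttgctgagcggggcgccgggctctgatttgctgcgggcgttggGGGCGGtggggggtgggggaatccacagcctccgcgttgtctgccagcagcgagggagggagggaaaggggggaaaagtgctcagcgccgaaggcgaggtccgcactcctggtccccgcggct

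In the window of Col4a1, chr8:11312777-11313076 (minus strand), capitals mark the 78 bases that are also in the window of Col4a2 on the plus strand. The annotated starts of this pair lie 21 bases apart.
Col4a1: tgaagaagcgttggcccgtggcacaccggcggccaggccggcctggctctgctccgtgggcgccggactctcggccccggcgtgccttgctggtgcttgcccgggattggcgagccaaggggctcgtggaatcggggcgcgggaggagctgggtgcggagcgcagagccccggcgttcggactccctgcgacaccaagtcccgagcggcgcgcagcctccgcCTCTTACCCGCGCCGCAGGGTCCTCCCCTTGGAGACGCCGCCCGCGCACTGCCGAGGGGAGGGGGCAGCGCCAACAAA

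GC boxes were found in 60.5% of the 38 collagen windows and in 35.7% of all 32851 windows of that table, CCAAT boxes in 34.2% and 37.4%, and the TATA sequence TATAAA in 13.2% and 13.6%. The upstream Col18a1 window held 3 GC boxes and 16 CpG dinucleotides, and the downstream one 0 and 6. The Col4a1 window was the richest in CpG of these, with 37 in 300 bases at 74.0% GC. These matches describe letters and were not tied to any level.

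Collagen transcripts were scarce in these cells, and 1 gene supplied most of them. All 44 genes together took up 0.0339%, 0.0164% and 0.0076% of the counts of Ctrl replicates 1 to 3, and 0.0231%, 0.00469% and 0.00997% of those of the Ezh2 KO replicates. Col18a1, whose product sits in basement membranes and yields endostatin, made up 66.6% to 86.2% of the collagen CPM of a library. Scaled per length (CPM per kilobase of annotated exon, mean of 6 libraries), Col18a1 stood at 18.6, followed by Col9a2, a chain of the collagen IX that coats cartilage fibrils, at 2.26. Next came the collagen I chain gene Col1a1 at 0.467, the transmembrane collagen Col13a1 at 0.380 and Col4a2 at 0.351 CPM per kilobase. The lowest was the fibrillar collagen Col24a1 at 0.00275, with 5 reads in all.

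**Figure D1:**
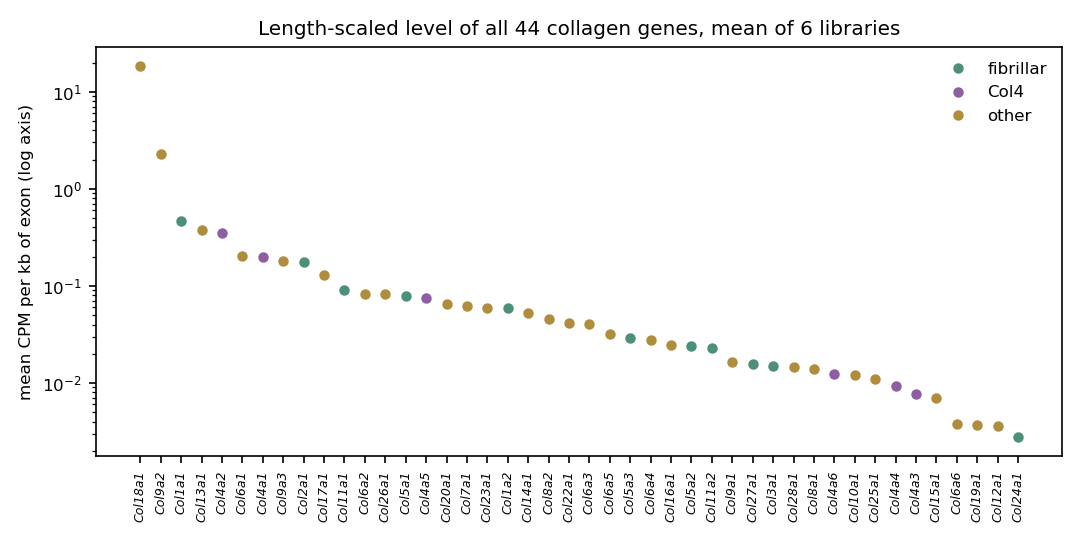
Length-scaled level (CPM per kilobase of exon, mean of 6 libraries, log axis) of each of the 44 collagen genes, ordered by level and coloured by class. Col18a1 at 18.6 and Col9a2 at 2.26 stand above the other 42 genes.

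Enough reads for a test were found for 21 of the 44 genes (47.7%), against 66.0% of all protein-coding genes. The filter passed 5 fibrillar, 3 basement membrane and 13 other collagens. A gene can pass it through the group in which it is higher, so counts over these 21 describe them and are no support for a direction. The remaining 23 genes had 5 to 70 reads each over all 6 libraries and 0 to 0.772 CPM in any library, where 3 reads correspond to 0.0618 to 0.116 CPM depending on the library. The most read was the fibril-associated Col14a1, at 0.0825, 0.284 and 0.283 CPM in the Ctrl libraries, and at 0.562, 0.772 and 0.222 in those of Ezh2 KO, with overlapping groups. They include Col3a1, the partner of collagen I in soft tissue, with 30 reads in all, the network collagen Col10a1 of hypertrophic cartilage with 8, and Col12a1, a fibril-associated collagen, with 12. Among these 23 scarce genes, Col8a1 (23 reads) had every Ezh2 KO library below every Ctrl library and Col9a1 (18 reads) the reverse. Col8a1 had 8, 4 and 6 reads in Ctrl and 3, 0 and 2 in Ezh2 KO, and Col9a1 4, 2 and 0 against 5, 3 and 4. Among all tested genes 4.03% and 4.07% had these patterns, and no share was computed for genes too scarce to test.

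No collagen gene passed the comparison of Ezh2 KO with Ctrl. The edgeR quasi-likelihood test called 0 of the 21 at an adjusted p under 0.05, and 0 of all 16420 tested genes (0%). At an unadjusted p under 0.05 there were 2 collagens, Col1a2 and Col5a1, both lower, against 2.8% of all tested genes, and DESeq2 and limma-voom also gave 2 at that level and called 0. A block on the replicate number assumes that same-numbered libraries pair, which the labels do not state. With this block, 6 collagens had an unadjusted p under 0.05, all lower (9.1% of all tested genes did), and 0 were called. Among these 21 filtered genes, log2 fold changes were negative for 18 and had a median of -0.62, where 48.7% of all tested genes were negative and the median was 0.01. Without the filter, 30 of the 44 collagens were negative, with a median of -0.29. In that setting 13701 of 26974 genes were negative, with a median of -0.007. Without Ctrl replicate 1, 13 of 21 were negative, with a median of -0.24, and without Ezh2 KO replicate 2, 16 of 26, with a median of -0.24. Without both, a removal chosen after seeing the data, 11 of 21 were negative, with a median of -0.06. Of all tested genes, 7648 of 16458, 8155 of 17043 and 7958 of 16525 were negative in these settings, in that order. Ctrl replicate 1 was the highest library for 11 of the 21 genes (24.1% of all tested genes) and Ezh2 KO replicate 2 the lowest for 14 (27.7%). Taking both out thus moves the values toward 0 by construction, and it also breaks 2 of the same-numbered pairs. The number at an unadjusted p under 0.05 was 1 of 21 without Ctrl replicate 1, where 363 of all 16458 tested genes had one. It was 1 of 21 without that pair of libraries (711 of 16525 genes) and 0 of 26 without Ezh2 KO replicate 2 (468 of 17043). Without Ezh2 KO replicate 1 it was 6 of 21, and the number over all genes rose as well, to 1432 of 16520.

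**Figure D2:**
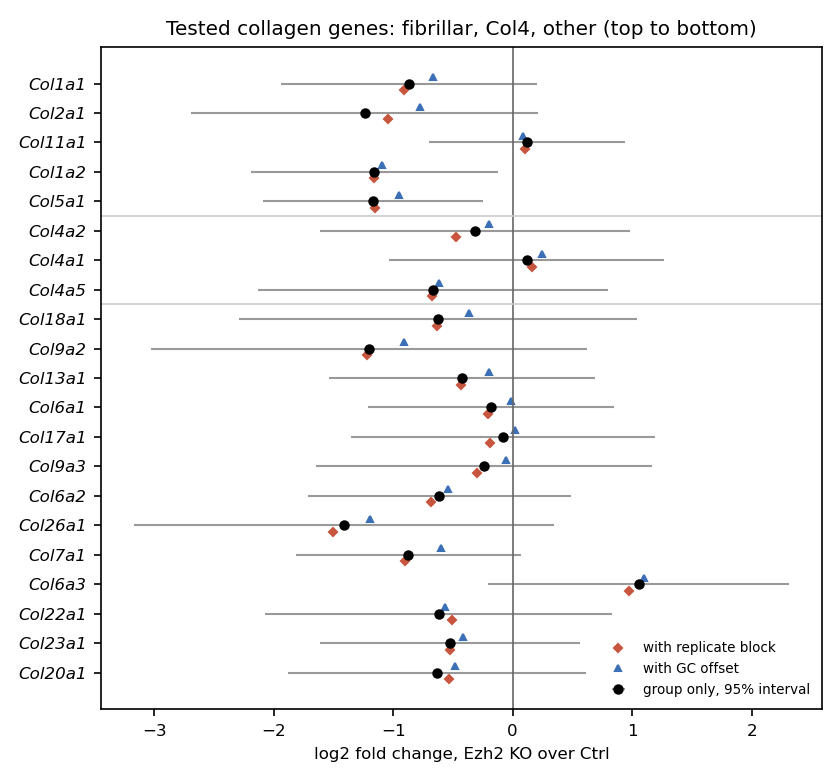
Log2 fold change of Ezh2 KO over Ctrl for the 21 tested collagen genes in edgeR, with 95% intervals (black circles, bars), with the replicate block (red diamonds) and with an offset for GC content (blue triangles). All intervals but those of Col1a2 and Col5a1 include 0.

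Among the fibrillar collagens, 4 of the 5 tested genes had lower group means in Ezh2 KO. Col1a2 encodes the second chain of collagen I. It stood at 0.804, 0.816 and 1.41 CPM across Ctrl replicates 1 to 3, and at 0.615, 0.270 and 0.445 across the 3 Ezh2 KO replicates. The groups did not overlap, Ctrl replicate 3 being the highest and Ezh2 KO replicate 2 the lowest. The log2 fold change of Col1a2 was -1.16 ± 0.45 (SE) with a 95% interval of -2.19 to -0.12, on 39, 23 and 40 reads in Ctrl and 23, 7 and 18 in Ezh2 KO (edgeR unadjusted p = 0.0328, adjusted p = 0.976).

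Col5a1 encodes a collagen V chain that sits within collagen I fibrils and limits their width. Its levels were 1.20, 0.887 and 0.708 CPM in the Ctrl libraries, against 0.481, 0.309 and 0.445 in those of Ezh2 KO. Again every Ezh2 KO library lay below every Ctrl library. The log2 fold change of Col5a1 was -1.17 ± 0.40 (SE), with an interval of -2.09 to -0.25 (edgeR unadjusted p = 0.0189, adjusted p = 0.976). It rested on 58, 25 and 20 reads in Ctrl and 18, 8 and 18 in Ezh2 KO. With every Ezh2 KO library below every Ctrl library, Col1a2, Col5a1 and the anchoring collagen Col7a1 were 3 of the 21 tested, and 4.03% of all tested genes had that pattern. Col6a3 alone had the reverse, which 4.07% of all tested genes had.

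Col1a1 and Col2a1 leaned the same way with overlapping groups. Col1a1, which encodes the main chain of collagen I, stood at 5.63, 3.55 and 2.72 CPM in the Ctrl libraries, and at 3.10, 1.00 and 2.40 in those of Ezh2 KO (log2 fold change -0.87 ± 0.47 SE). Ezh2 KO replicate 1 exceeded Ctrl replicate 3. The cartilage collagen Col2a1 stood at 4.08, 2.13 and 0.672 CPM in the Ctrl libraries, and at 1.44, 0.849 and 0.642 in those of Ezh2 KO (log2 fold change -1.24 ± 0.63 SE). In each of the 3 same-numbered pairs, Col1a1, Col1a2, Col2a1 and Col5a1 were lower in the Ezh2 KO library, and the blocked fit gave unadjusted p-values of 0.0222, 0.0183, 0.0148 and 0.0137 for them (adjusted p = 0.489, 0.479, 0.469 and 0.469). Without Ctrl replicate 1 and Ezh2 KO replicate 2 the log2 fold change was -0.19 for Col1a1 and -0.43 for Col2a1, but -1.07 for Col1a2 and -0.78 for Col5a1. Leaving out Ctrl replicate 1 alone gave -0.52 for Col1a1 and -0.51 for Col2a1, and leaving out Ezh2 KO replicate 2 alone gave -0.53 for Col1a1.

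Col11a1 stood apart from these. This chain of collagen XI, which nucleates cartilage fibrils, was at 0.887, 1.31 and 1.17 CPM in the Ctrl libraries, and at 0.909, 1.27 and 1.46 in those of Ezh2 KO. Its 6 libraries lay within 1.64-fold of each other, a narrower range than in 66.4% of tested genes. The log2 fold change of Col11a1 was 0.12 with a 95% interval of -0.70 to 0.94. The other fibrillar genes (Col3a1, Col5a2, Col5a3, Col11a2, Col24a1 and Col27a1) were not tested and reached at most 0.481 CPM.

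The 2 chains of collagen I were not kept in a fixed ratio. Per length, Col1a1 exceeded Col1a2 by 13.3, 8.23 and 3.64 times in the Ctrl libraries, and by 9.55, 7.03 and 10.2 times in those of Ezh2 KO. Exon length was taken over all annotated isoforms, which is long for Col1a2 (12426 bases) and raises that ratio. Summed over the 11 fibrillar genes, CPM was 13.8, 9.61 and 7.15 in the Ctrl libraries, against 8.18, 4.32 and 6.27 in those of Ezh2 KO, or 10.2 ± 3.38 against 6.26 ± 1.93 (SD, n = 3). The groups overlapped, as Ezh2 KO replicate 1 exceeded Ctrl replicate 3. Fibroblast and mesenchyme markers also had a lower mean sum in Ezh2 KO. They summed to 73.8, 61.3 and 46.6 CPM in the Ctrl libraries, against 55.6, 31.9 and 35.1 in those of Ezh2 KO. Most of that came from 1 gene, Fbln1, with a mean of 56.16 CPM in Ctrl and 37.75 in Ezh2 KO. Of these 12 markers, 4 had every Ezh2 KO library below every Ctrl library, all too scarce for the test: the mesenchymal transcription factors Twist1 (0.264 ± 0.172 against 0.0422 ± 0.0391 CPM), Twist2 (0.209 ± 0.0415 against 0.0672 ± 0.0751 CPM) and Prrx1 (0.242 ± 0.221 against 0.0293 ± 0.026 CPM), and the matrix gene Postn (0.239 ± 0.0996 against 0.0936 ± 0.0259 CPM, SD, n = 3). Among all tested genes 4.03% had that pattern, and no share was computed for genes this scarce. Of the 5 markers that were tested, 0 had groups without overlap, and 3 log2 fold changes were negative and 2 positive. The part of mesenchymal cells in the fibrillar values was not tested. The log2 ratio of the fibrillar means was -0.70, and -0.21 without Ctrl replicate 1 and Ezh2 KO replicate 2.

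**Figure D3:**
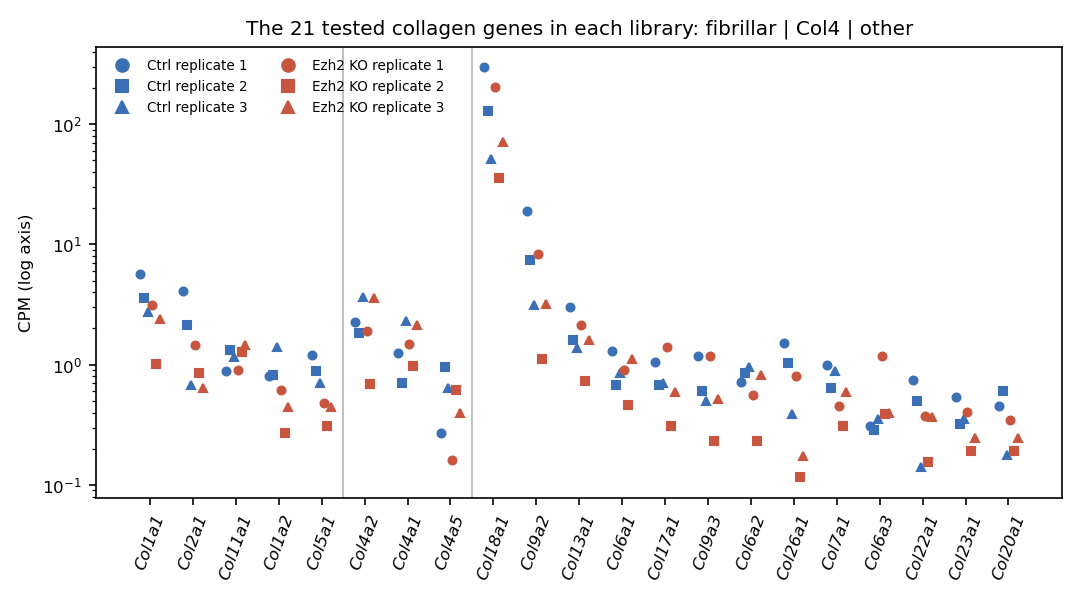
CPM (log axis) of the 21 tested collagen genes in each library, by class (vertical lines), with Ctrl in blue and Ezh2 KO in red and a symbol for each replicate number. Col18a1 spans 35.5 to 295 CPM, while Col11a1 stays between 0.887 and 1.46 CPM.

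The basement membrane pair Col4a1 and Col4a2 was ordered by replicate number rather than by group. These genes encode the 2 chains of the common collagen IV trimer and are transcribed in opposite directions from the shared start region shown above. Col4a2 was at 2.25, 1.85 and 3.68 CPM in the Ctrl libraries, and at 1.90, 0.695 and 3.58 in those of Ezh2 KO. Col4a1 was at 1.26, 0.710 and 2.30 CPM in the Ctrl libraries, and at 1.47, 0.965 and 2.15 in those of Ezh2 KO. For both genes the highest 2 libraries were the replicates numbered 3, one of each group. The log2 fold changes, -0.31 ± 0.56 (SE) for Col4a2 and 0.12 ± 0.50 (SE) for Col4a1, had 95% intervals of -1.61 to 0.98 and -1.03 to 1.26. With the replicate block they were -0.48, with an interval of -1.19 to 0.24, and 0.16, with an interval of -0.50 to 0.82. Col4a2 was lower in the Ezh2 KO library of each same-numbered pair, at 84.5%, 37.7% and 97.3% of Ctrl, and Col4a1 stood at 117%, 136% and 93.5%. The sign of Col4a2 turned without Ctrl replicate 3 (0.01) or Ezh2 KO replicate 2 (0.10), and that of Col4a1 without Ctrl replicate 2 (-0.20) or Ezh2 KO replicate 3 (-0.21).

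Per length, Col4a2 was 2.02, 2.93 and 1.8 times as abundant as Col4a1 in Ctrl and 1.46, 0.812 and 1.88 times in Ezh2 KO. Ezh2 KO replicate 2, with 18 reads of Col4a2 and 25 of Col4a1, was the only library in which Col4a1 led. The X-linked Col4a5, a chain of the kidney and skin collagen IV, was at 0.268, 0.958 and 0.637 CPM in the Ctrl libraries, and at 0.160, 0.618 and 0.395 in those of Ezh2 KO, a log2 fold change of -0.66 ± 0.64 (SE). Each Ezh2 KO library held 59.9% to 64.5% of the Col4a5 level of its same-numbered Ctrl library, but the groups overlapped widely and the blocked fit did not pass either (unadjusted p = 0.128, adjusted p = 0.653). Without Ctrl replicate 2 the log2 fold change of Col4a5 was -0.20, without Ezh2 KO replicate 1 it was -0.28, without Ctrl replicate 1 it was -1.05 and without Ezh2 KO replicate 2 it was -1.10. Col4a3, Col4a4 and Col4a6 had 15, 19 and 20 reads in all and were not tested. The 6 genes together reached 3.88, 3.8 and 7.22 CPM in the Ctrl libraries, against 3.77, 2.39 and 6.42 in those of Ezh2 KO, or 4.96 ± 1.95 against 4.20 ± 2.05 (SD, n = 3). That log2 ratio of -0.24 became 0.11 without Ctrl replicate 3 and 0.06 without Ezh2 KO replicate 2, but -0.69 without Ezh2 KO replicate 3, -0.41 without Ctrl replicate 2 and -0.39 without Ctrl replicate 1. It was -0.17 without Ezh2 KO replicate 1.

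**Figure D4:**
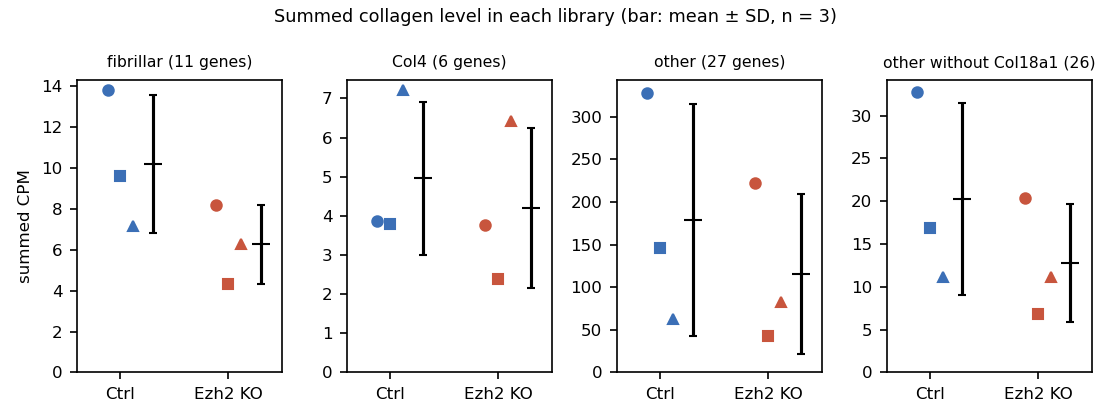
Summed CPM of the fibrillar, Col4 and other collagens, and of the others without Col18a1, in each library (linear axes from 0, Ctrl in blue, Ezh2 KO in red, circle, square and triangle for replicates 1, 2 and 3), with mean ± SD (n = 3). Groups overlap in all 4 panels, and Ctrl replicate 1 is the highest library in all but the Col4 panel, where Ctrl replicate 3 is.

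Of the other collagens, Col18a1 and Col9a2 carried the level and varied widely between libraries of one group. Col18a1 was at 295, 129 and 51.0 CPM in the Ctrl libraries, and at 201.5, 35.5 and 71.3 in those of Ezh2 KO. The lowest Ctrl library thus lay below 2 of the 3 Ezh2 KO libraries. Its log2 fold change of -0.62 ± 0.72 (SE) had an interval of -2.29 to 1.04, and it became 0.19 without Ctrl replicate 1, 0.59 without Ctrl replicate 1 and Ezh2 KO replicate 2, -1.57 without Ezh2 KO replicate 1, -1.06 without Ctrl replicate 3, -0.42 without Ezh2 KO replicate 3 and -0.21 without Ezh2 KO replicate 2. Col9a2 was at 18.8, 7.34 and 3.11 CPM in the Ctrl libraries, and at 8.34, 1.12 and 3.21 in those of Ezh2 KO (log2 fold change -1.20 ± 0.79 SE). Without Ctrl replicate 1 and Ezh2 KO replicate 2 that value was 0.13, without Ctrl replicate 1 alone -0.30, without Ezh2 KO replicate 2 alone -0.76 and without Ezh2 KO replicate 1 alone -2.16.

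The span of Col18a1 overlaps that of Slc19a1 on the opposite strand, which had 4770 reads to the 30722 of Col18a1. Overlap of their exons was not examined, and without a stated strand setting reads from any shared bases cannot be told apart. Both Col18a1 and Col9a2 followed the base composition of the libraries. The order of the 6 libraries by Col18a1, and by Col9a2, was the same as their order by mean transcript GC content: Ctrl 1, Ezh2 KO 1, Ctrl 2, Ezh2 KO 3, Ctrl 3 and Ezh2 KO 2. That exact order was found in 3.42% of all tested genes and in these 2 of the 21 collagens. Transcripts of Col18a1 and Col9a2 are rich in GC, at 60.8% and 62.7%, and the tested collagens had a median of 57.7% against 49.9% for all tested genes. Across the libraries Col18a1 spanned 8.30-fold and Col9a2 16.8-fold, wider than in all but 3.12% and 0.834% of tested genes. After an offset for GC content fitted in each library the spans were 3.46-fold and 5.99-fold, and the log2 fold changes -0.36 and -0.91. For Col2a1, at 62.2% GC, the offset gave -0.78 in place of -1.24, and with offset and block together its unadjusted p was 0.0520 (edgeR adjusted p = 0.506) in place of 0.0148. In this offset fit Col1a2 and Col5a1 had log2 fold changes of -1.09 and -0.95, and the median of the tested collagens was -0.48. Which part of the spread reflects the cells and which the library preparation was not tested.

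**Figure D5:**
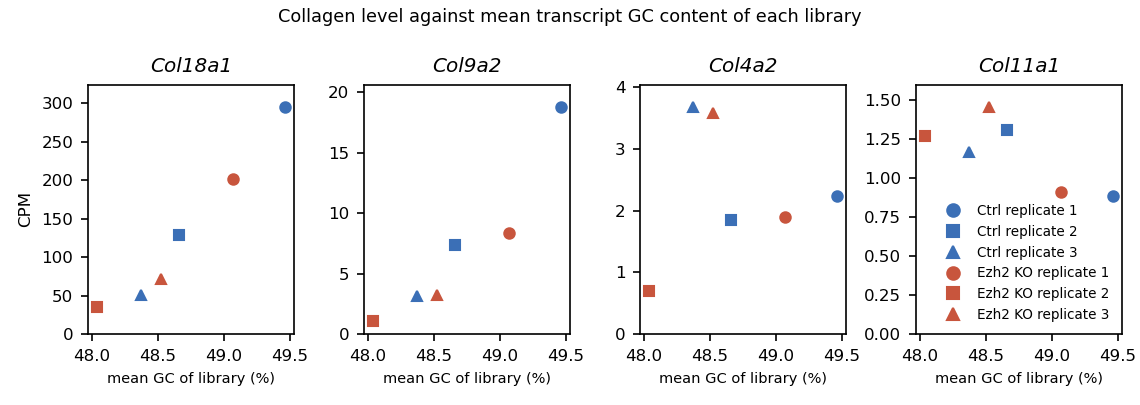
CPM of Col18a1, Col9a2, Col4a2 and Col11a1 (linear axes from 0) against the mean GC content of the transcripts in each library (percent), 6 libraries, colours by group and symbols by replicate number. Col18a1 and Col9a2 climb from Ezh2 KO replicate 2 to Ctrl replicate 1, while Col4a2 is highest in the libraries numbered 3 and Col11a1 is lowest in the 2 libraries of highest GC content.

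Further members of this class stood near or below 3 CPM. Col13a1, a transmembrane collagen of cell adhesion sites, was at 3.03, 1.60 and 1.38 CPM in the Ctrl libraries, and at 2.14, 0.734 and 1.61 in those of Ezh2 KO, with a log2 fold change of -0.42 that became 0.02 without Ctrl replicate 1 and 0.33 without Ctrl replicate 1 and Ezh2 KO replicate 2. Col7a1, which forms the fibrils that anchor skin epithelium, was at 0.990, 0.639 and 0.884 CPM in the Ctrl libraries, and at 0.455, 0.309 and 0.593 in those of Ezh2 KO. These groups did not overlap. The log2 fold change of Col7a1 was -0.87 ± 0.41 (SE, edgeR unadjusted p = 0.0645, adjusted p = 0.976), and -0.53 without Ctrl replicate 1 and Ezh2 KO replicate 2. With the replicate block its unadjusted p was 0.0383 (adjusted p = 0.520). Col26a1, a small collagen of testis and ovary, also had a low blocked p-value (unadjusted p = 0.0108, adjusted p = 0.466), at 1.53, 1.03 and 0.389 CPM in the Ctrl libraries, and at 0.802, 0.116 and 0.173 in those of Ezh2 KO, with overlapping groups.

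Col6a3, the large chain of the beaded filament collagen VI, went the other way. It was at 0.309, 0.284 and 0.354 CPM in the Ctrl libraries, and at 1.18, 0.386 and 0.395 in those of Ezh2 KO. Ezh2 KO replicate 1 alone, with 44 reads, set its mean, and the other 2 Ezh2 KO libraries lay just above the highest Ctrl library. The log2 fold change of Col6a3 was 1.05 ± 0.55 (SE, edgeR unadjusted p = 0.0902, adjusted p = 0.976), and 0.31 without Ezh2 KO replicate 1. Its partner chains Col6a1 and Col6a2 had log2 fold changes of -0.18 and -0.61. The 27 genes summed to 328, 146 and 62.2 CPM in the Ctrl libraries, against 222, 42.3 and 82.5 in those of Ezh2 KO, or 179 ± 136 against 116 ± 94.2 (SD, n = 3). Without Col18a1 and Col9a2 the other 25 summed to 10.5 ± 3.11 and 8.55 ± 3.21 CPM, with ranges of 8.07 to 14.0 and 5.68 to 12.0. The log2 ratio of the whole class was -0.63, and it became 0.15 without Ctrl replicate 1, 0.54 without Ctrl replicate 1 and Ezh2 KO replicate 2, -1.52 without Ezh2 KO replicate 1, -1.05 without Ctrl replicate 3 and -0.23 without Ezh2 KO replicate 2.

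In sum, the machinery that folds and modifies collagen chains was more abundant than the chains. All 44 collagens summed to 194 ± 138 CPM in Ctrl and 126 ± 96 in Ezh2 KO (SD, n = 3). By gene, Col18a1 (130.5 CPM, mean of 6 libraries) stood above every listed processing gene except P4hb (328). Of the 20 genes of chain processing, 17 were tested, and the 20 summed to 950 ± 112 CPM in Ctrl against 892 ± 151 in Ezh2 KO (SD, n = 3). Mia3 had 0 reads, and as the annotation used for counting is not stated, this does not show that the gene was silent. P4hb, which is both a subunit of prolyl hydroxylase and a general disulfide isomerase, stood at 328 ± 67.0 and 328 ± 51.5 CPM. Serpinh1, the collagen chaperone HSP47, stood at 121 ± 41.0 and 116 ± 24.1 CPM. In this list 0 members had an unadjusted p under 0.05, and 13 of the 17 were negative, where 48.7% of all tested genes were. The median log2 fold change was -0.19. After the offset for GC content 9 of the 17 were negative, where 7824 of all 16420 tested genes were, and the median was -0.01. With the block 3 of the 17 had an unadjusted p under 0.05, where 9.1% of all tested genes did, all lower: the prolyl hydroxylase subunits P4ha1 (-0.65) and P4ha2 (-0.66) and the prolyl 3-hydroxylase P3h1 (-0.54).

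Genes that trim and crosslink collagen outside the cell were sparser. The 14 listed genes, 10 of them tested, summed to 40.6 ± 11.7 CPM in Ctrl against 44.8 ± 16.4 in Ezh2 KO, with a median log2 fold change of 0.15. Pcolce, which speeds removal of the procollagen end, was at 9.56 ± 3.69 and 11.9 ± 3.81 CPM. The procollagen peptidase Adamts14 was at 8.30 ± 4.51 and 8.97 ± 7.45 CPM. At an unadjusted p under 0.05 there were 0 members, and with the block 3 of the 10 (9.1% of all tested genes): the crosslinking peroxidase Pxdn and the lysyl oxidase-like Loxl3 lower, and Loxl1 higher.

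Among the 4 tested collagen receptors, the Itga1 levels of the groups did not overlap, with Ezh2 KO above, a pattern of 4.07% of all tested genes. Itga1 encodes the integrin chain that pairs with the product of Itgb1 and binds collagen IV in particular. Its levels were 3.24, 4.97 and 4.60 CPM in the Ctrl libraries, against 7.62, 11.2 and 7.78 in those of Ezh2 KO. The log2 fold change of Itga1 was 1.06 ± 0.29 (SE) with an interval of 0.38 to 1.73 (edgeR unadjusted p = 0.00670, adjusted p = 0.976), and 0.69 without Ctrl replicate 1 and Ezh2 KO replicate 2. DESeq2 with the replicate block called Itga1 (adjusted p = 0.0457) as 1 of 50 genes among 16420, while edgeR with the block did not (adjusted p = 0.381). Its partner Itgb1 was at 106 ± 34.7 and 111 ± 21.2 CPM, and Ddr1, a collagen-binding kinase, was the next most abundant receptor. Of the 10 receptor genes 4 were tested, and 1 of these had an edgeR unadjusted p under 0.05, against 2.8% of all tested genes. The platelet receptor Gp6 had 0 reads in all libraries.

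Basement membrane partners of collagen IV were, in sum, far more abundant than collagen IV itself. The 16 genes, of which 14 were tested, summed to 638 ± 132 CPM in Ctrl against 604 ± 184 in Ezh2 KO, against 4.96 and 4.20 CPM for the 6 Col4 genes. Nid2, a nidogen that bridges laminin and collagen IV, was at 174 ± 61.7 and 137 ± 95.2 CPM. Sparc, a collagen-binding matricellular protein, was at 133 ± 45.5 and 156 ± 27.7 CPM. The median log2 fold change of the list was -0.10, and 0 members had an unadjusted p under 0.05, or 1 of the 14 with the block (Agrn, lower), against 9.1% of all tested genes. Per length, Lamc1, the most abundant laminin chain gene, stood at 12.0 CPM per kilobase, where Col4a2 stood at 0.351. Laminin genes below Col4a2 were Lama3 (0.203), Lama4 (0.109), Lamb3 (0.0709), Lamc3 (0.0144) and Lama2 (0.00737). All other listed partners stood above it.

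Collagen breakdown genes were few at this level. Of the 13 listed genes 12 were found and 8 tested, with a median log2 fold change of -0.27 and 0 members at an unadjusted p under 0.05. The protease inhibitor Timp1 was at 21 ± 1.38 CPM in Ctrl against 17.7 ± 2.7 in Ezh2 KO. Timp4, too scarce for the test with 24 reads in all, had every Ezh2 KO library above every Ctrl library. Among all tested genes 4.07% had that pattern, and no share was computed for genes this scarce. The membrane-bound collagenase Mmp14 was at 14.2, 4.12 and 4.85 CPM in the Ctrl libraries, and at 5.72, 1.89 and 6.00 in those of Ezh2 KO.

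The 12 fibroblast and mesenchyme markers summed to 46.6 to 73.8 CPM in Ctrl and 31.9 to 55.6 CPM in Ezh2 KO, and most of that came from the matrix gene Fbln1 (56.2 ± 12.5 and 37.7 ± 12.1 CPM, edgeR unadjusted p = 0.0688, or 0.0134 with the block). Of the 12, 2 reached a mean of 1 CPM, Fbln1 and Pdgfrb, and 5 were tested. The defining genes Dcn and Lum had 11 and 10 reads over all 6 libraries and Postn 34, and 0 of the 12 were without any read. Primitive and parietal endoderm markers, a source of Col4 chains in the embryo, summed to 12.8 to 14.6 CPM in Ctrl and 10.4 to 18.7 CPM in Ezh2 KO, led by Amn and Sox7, with 8 of 10 tested, 0 without any read and Foxa2 at 2 reads. With the block, Gata6 and Sox17, 2 of the 8 tested, had an unadjusted p under 0.05, both lower, where 9.1% of all tested genes did. In the fit with group only, 5 of the 8 log2 fold changes were negative and 3 positive. Endothelium and blood markers summed to 127 to 200.4 CPM in Ctrl against 124 to 206 in Ezh2 KO, 6 of 9 being tested and most of the sum being Pecam1, which pluripotent cells express as well. The part of other cell types in the collagen levels was not tested, and in bulk RNA fewer cells of a type cannot be told apart from less RNA per cell.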

How the data were processed

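The authors deposited 1 table of raw read counts per Ensembl gene for the 6 libraries. Per the submitters' processing notes, the tools were featureCounts, TopHat2 2.0.11, Trimmomatic 0.33 and CASAVA 1.8.4, and the builds mm9 and NCBIM37. The sources used here give neither strand use nor annotation version. Protein-coding pairs whose spans overlap on opposite strands are Col18a1 and Slc19a1, Col9a3 and Tcfl5, Col10a1 and Nt5dc1, and Col4a1 and Col4a2. Whether their exons overlap, so that reads could be shared, was not examined. Symbols, exon lengths and GC content came from GENCODE M21 by gene ID (32919 of 37991 matched), a later build. The overlaps between genes also came from its coordinates, taken over whole genes with introns.

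Genes kept by filterByExpr (minimum count 10) numbered 16420. They were tested with edgeR 4.0.16 (quasi-likelihood, robust, TMM, group only, two-sided, R 4.3.3), with Benjamini-Hochberg adjustment over all of them and a threshold of 0.05. The SE derives from the F statistic. Alternatives were DESeq2 1.42.0 with and without the replicate block, its size factors, limma-voom (limma 3.58.1), no filter, a stricter filter (CPM of 1 in 3 libraries, mean of 20 counts), the block, a GC offset (loess, span 0.5, fitted above a mean log2 CPM of 2) with and without the block, and each library left out. Removal of Ctrl replicate 1 and Ezh2 KO replicate 2 together was added after seeing the data. The code was tested on simulated data.

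Deviations from the group means correlated at 0.583, 0.368 and 0.192 in same-numbered pairs 1, 2 and 3. The highest correlation of each Ctrl library with an Ezh2 KO library of another number was -0.0229, -0.185 and 0.297. Pair 3 thus did not match best by number. The labels state no pairing, so the block and the same-numbered comparisons rest on an assumption. Named genes were all tested fibrillar and Col4 genes, other tested collagens with a mean of at least 1 CPM, an unadjusted p under 0.05 or groups without overlap, Ezh2, and of each companion list the 2 most abundant tested genes and any member with an unadjusted p under 0.05 (of marker lists, the 2 most abundant and those at 0). Other genes were named after their values were seen. Members and lists were chosen with earlier results of these data known.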

Additional observations from a re-analysis of the deposited data

How the results depend on the processing

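No collagen gene was called in any of the 16 alternatives. Over all genes, DESeq2 called 20 and DESeq2 with the replicate block 50, and edgeR and limma-voom called 0 in every alternative. The replicate block left the number of collagens called at 0 (smallest adjusted p 0.466). Without Ctrl replicate 1 and Ezh2 KO replicate 2 the log2 ratio of the fibrillar sum was -0.213, and single values that changed sign were Col4a2 (0.00527), Col11a1 (-0.0567), Col18a1 (0.589), Col9a2 (0.134) and Col13a1 (0.332). With 1 library left out, log2 fold changes that changed sign ran from -0.977 to 0.105 for Col4a2 (0.0075 without Ctrl replicate 3), -0.212 to 0.612 for Col4a1 (-0.202 without Ctrl replicate 2), -0.0381 to 0.293 for Col11a1 (-0.0324 without Ctrl replicate 1), -1.57 to 0.192 for Col18a1 and -0.768 to 0.0154 for Col13a1. That of Col9a2 ran from -2.16 to -0.3, and the fibrillar sum from -0.946 to -0.421. Col1a1, Col1a2, Col2a1, Col4a5, Col5a1 and Col7a1 were negative and Col6a3 and Itga1 positive in all alternatives that kept them, and Itga1 was called by DESeq2 with the replicate block (1.05). The stricter filter left 8 collagens, and the median half-width of a 95% interval was 1.25 on the log2 scale for tested collagens against 0.714 for all tested genes, so smaller changes of these genes were often not detectable.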
